A study of Mus musculus with 6 samples.

Results

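Astrocyte marker genes were followed through RNA of microglia from the nucleus of the solitary tract (NST), the first brainstem relay of taste, in P15 mice. The 36 genes were taken by symbol from a list of astrocyte markers. The rule uses no measured value, but the list was drawn up with earlier results of these data known. All 36 were found among the 26789 genes of the table, and all 36 reached the minimum for testing, an average of 10 normalized counts across the 6 libraries. Controls were offspring of dams kept on the control diet, and E3–E12 diet mice were offspring of dams given a low sodium diet from E3 to E12. Each group had 3 libraries, each from the pooled rostral NST of 6 littermates, so 1 library stands for 1 litter and no single animal was measured. The labels name no other treatment in either group. By the study's methods, dams on the low sodium diet also drank distilled water during that period, and tap water afterwards. The low sodium diet and the standard chow of the controls came from different makers. The strain and sex of these litters were not given in the labels. By the study's methods the microglia were positively selected with beads against CD11b, a surface protein of myeloid cells, and the RNA was amplified. The study checked the selected cells by flow cytometry and reported that the great majority of live cells carried CD11b. The labels describe laser microdissection and a different library kit, so it is uncertain how the cells were obtained.

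Astrocytes are the glia that clear glutamate and GABA from synapses, buffer potassium and water, couple to one another through gap junctions and wrap blood vessels and synapses with their processes. They are not myeloid cells, and CD11b is not one of their markers. In bulk RNA, fewer cells of a type and less RNA per cell cannot be told apart. Of the 36 markers, 14 are also known from other brain cells, such as Glul in oligodendrocytes and microglia or Ednrb in endothelial and mural cells, and the remaining 22 were listed for astrocytes alone.

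Astrocyte markers were detected, with a median level well below that of microglial markers. Per kilobase of annotated exon, their mean levels over the 6 libraries ran from 8.02 normalized counts for Gfap to 4679 for Glul, with a median of 72.7, against 43.3 for all genes tested. The 8 markers treated as defining for astrocytes had a median of 49.4, nearer to that of all genes. Microglial markers had a median of 3814 normalized counts per kilobase over 16 genes and a lowest value of 232, for Ptprc. Several astrocyte markers, such as Glul and Atp1b2 (778), lay above that lowest value. None of the 16 microglial markers was at 0 in any library. The same held for 28 of the 36 astrocyte markers, so the absence of 0 does not tell how pure the cells were. Control library 2 stood apart from the others, with 10640 genes listed at 0 against 3459 to 7135 elsewhere. It also had the largest sum of normalized counts, 17204618, against 9407141 to 14656956 in the others. The number of reads behind a value is not given. The smallest recurring step between low values, a guide to what 1 read was worth, was 1.97 normalized counts in control library 2 and 0.543 to 1.13 in the other libraries, so a value of 0 in control library 2 is a coarser reading than elsewhere.

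No astrocyte marker differed between diets after correction. With limma on log2(normalized count + 1), two-sided and adjusted by Benjamini-Hochberg over 18007 genes, 0 of 36 markers passed the adjusted threshold of 0.1 (adjusted p = 0.999 for each), against a background of 0.0% of all genes tested. The study's DESeq2 test of these libraries did list genes at that threshold, Slc6a11 among them. At an unadjusted p under 0.05 there were 2 of 36, Slc6a11 and Slc7a10, against 1.49% of all genes. Both were higher in E3–E12 diet mice, the direction of 0.805% of all genes at that p, and 0 markers were lower, against 0.683%. The fitted difference was above 0, that is, higher in E3–E12 diet mice, for 31 of 36 markers, where 54.4% of all genes were above 0. The median difference of the 36 was 0.90 on the log2 scale, beside 0.087 for all genes tested, and the median standard error of a single marker was 0.997. The difference was above 1 for 16 markers, against 19.3% of all genes.

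Those differences rested largely on a single control library. Control library 2 was the lowest of the 6 libraries for 27 of 36 markers, against 33.8% of all genes, and it held 8 markers at 0, against 16.2% of all genes. No marker was at 0 in any other library. E3–E12 diet library 1 was the highest for 23 of 36 markers, against 22.7% of all genes, and both applied to 17 markers, against 9.92%. Without control library 2 the median difference was 0.33, beside -0.0042 for all genes tested. In that fit 26 markers were above 0, of which 24 were above 0 with all libraries and 2, Fgfr3 and Bcan, were below. There 5 markers were above 1. Without control library 1 the median was 1.57, beside 0.18 for all genes tested. The shares of all genes above 0, above 1 or turning sign were not counted in the fits that left out a library. Over all fits that left out a library, 20 markers were higher in E3–E12 diet mice each time and 16 turned sign at least once.

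**Figure D1:**
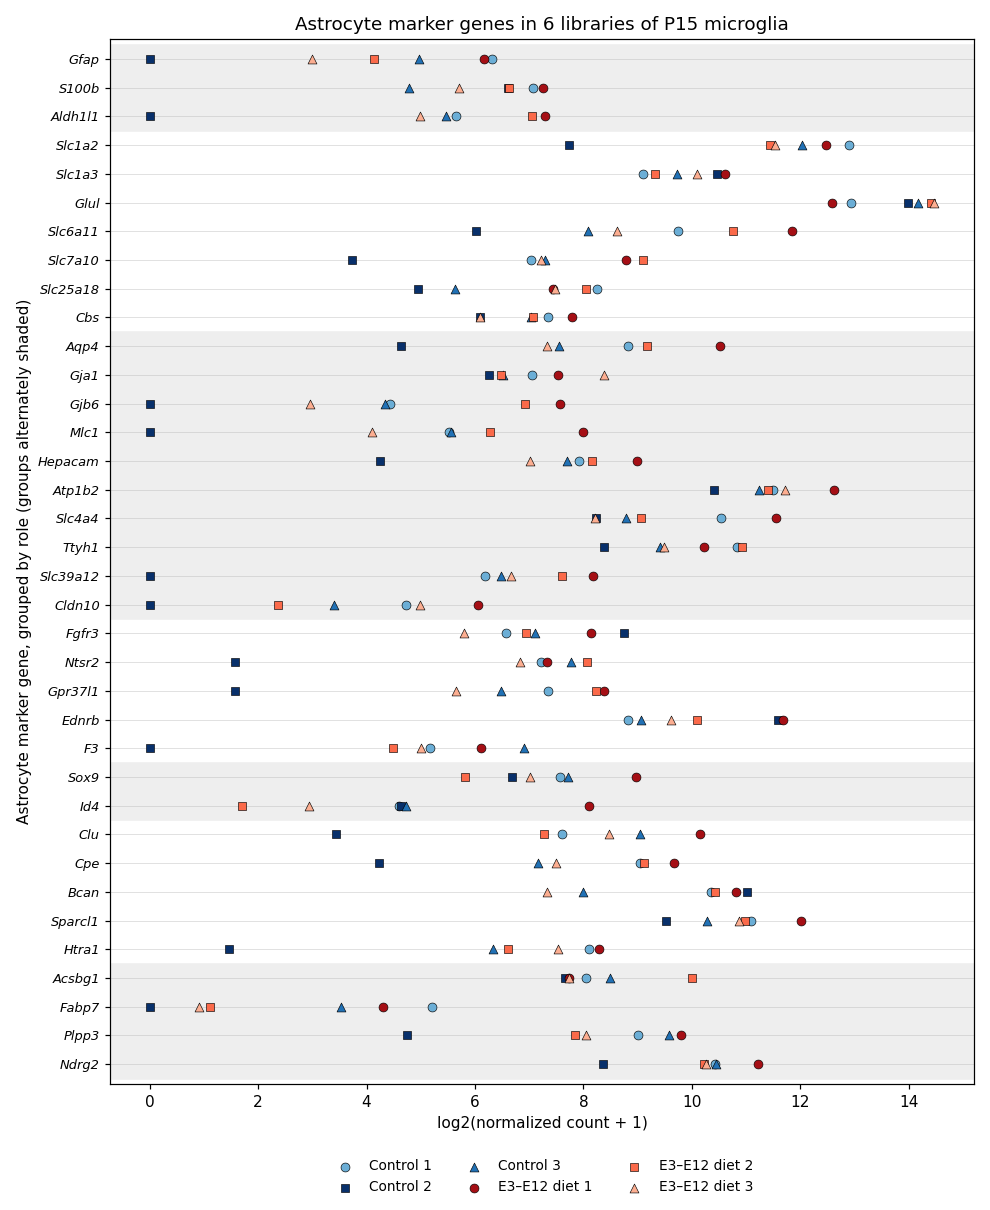
Levels of the 36 astrocyte markers in each library, as log2(normalized count + 1), with genes grouped by role in alternating shades; blue symbols are the 3 controls and red symbols the 3 E3–E12 diet libraries. Control library 2 (dark squares) is the leftmost point for 27 genes and lies at 0 for 8 of them.

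Of the cytoskeletal and cytosolic markers, Gfap and Aldh1l1 were at the low end of the 36 per kilobase, at 8.02 and 15.2 normalized counts, and S100b was nearer the middle, at 62.6. Gfap, the intermediate filament of astrocytes (chromosome 11, 102887336 to 102900912, minus strand, GRCm38), had 78.1, 0 and 30.3 normalized counts in control libraries 1, 2 and 3 and 71.0, 16.5 and 6.97 across the E3–E12 diet libraries. The groups overlapped across nearly the whole range, with both the highest and the lowest value among the controls. It differed by 0.67 ± 1.77 on the log2 scale (SE), while its mean was lower in E3–E12 diet mice, at 31.5 ± 34.5 against 36.2 ± 39.4 normalized counts (SD, n = 3 libraries each). The sign also turned under both CPM scaling (equal library totals) and quantile normalization, so no direction can be given for Gfap. Aldh1l1, a folate enzyme found throughout the astrocyte population, was read at 49.1, 0 and 43.1 across the controls and at 156, 132 and 30.7 across the E3–E12 diet libraries. E3–E12 diet library 3 lay below 2 controls, and the log2 difference of 2.74 ± 1.56 was 0.89 without control library 2. Of its 50-base exonic windows, 10.02% also occur in other genes, chiefly the antisense gene Gm15756, so some of its reads could have been assigned otherwise. S100b, a calcium-binding protein that oligodendrocytes and ependyma also make, differed in having no low value in control library 2. It had 133, 96.7 and 26.6 normalized counts across the controls and 152, 97.8 and 51.1 across the E3–E12 diet libraries, a log2 difference of 0.37 ± 0.91.

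The promoters of Gfap and S100b are shown because these classic markers part company in control library 2, where Gfap was at 0 and S100b was near its middle value. Any link between the sequences and that difference was not tested. Where a gene had several RefSeq starts, a start whose window held TTGGCA on either strand was preferred. Each is the 250 bases before the RefSeq start, on GRCm38.p6 and in the direction of the gene, and neither window overlaps an annotated exon. Capitals mark TTGGCA, the half-site of nuclear factor I proteins, which act in astrocyte development. S100b is at chr10:76253586-76253835 on the plus strand and Gfap at chr11:102897201-102897450 on the minus strand.
S100b: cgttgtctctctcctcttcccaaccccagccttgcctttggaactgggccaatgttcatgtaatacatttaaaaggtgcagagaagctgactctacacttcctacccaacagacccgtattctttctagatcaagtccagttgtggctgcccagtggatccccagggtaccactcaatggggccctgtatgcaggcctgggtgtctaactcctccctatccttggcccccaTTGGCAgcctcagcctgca
Gfap: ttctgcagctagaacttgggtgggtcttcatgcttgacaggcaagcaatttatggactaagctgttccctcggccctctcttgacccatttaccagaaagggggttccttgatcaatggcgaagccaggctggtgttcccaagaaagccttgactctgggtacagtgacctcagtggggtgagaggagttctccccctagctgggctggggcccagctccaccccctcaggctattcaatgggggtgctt
TTGGCA, sought on both strands, occurred in 2 of the 30 marker promoters that could be matched (Hepacam and S100b), against 16.1% of 27025 genes. ACAATGG, a motif of SOX proteins, also on both strands and with no overlap with the first, occurred in 0 of 30, against 4.15% of all genes.

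The 7 genes of glutamate, GABA and amino acid handling all had fitted differences above 0, with a median of 0.93 on the log2 scale. Slc6a11, the GABA transporter GAT-3 of astrocytes (chromosome 6, 114131241 to 114249952, plus strand), had 858, 63.7 and 270.5 normalized counts in control libraries 1, 2 and 3 and 3660.0, 1726 and 391 across the E3–E12 diet libraries. E3–E12 diet libraries 1 and 2 lay above all controls, and library 3 lay below control library 1. The log2 difference was 2.45 ± 0.98 (limma unadjusted p = 0.0288, adjusted p = 0.999; exact permutation p = 0.2), and it was 1.49 without control library 2. The study listed Slc6a11 as upregulated from these same libraries, so its direction is not independent evidence.

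Slc7a10, the neutral amino acid carrier Asc-1 that moves glycine and D-serine (chromosome 7, 35186385 to 35201114, plus strand), had 129.8, 12.2 and 157 normalized counts across the controls. The E3–E12 diet libraries had 438, 549.8 and 148, so library 3 fell inside the control range and the others above it. Its log2 difference was 2.35 ± 0.996 (limma unadjusted p = 0.0376, adjusted p = 0.999; exact permutation p = 0.2) and 1.203 without control library 2. Of its windows, 12.9% also occur in other genes, chiefly Lrp3 on the opposite strand, and it was not stated whether strand was used in counting.

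The glutamate transporters parted from that pattern. Slc1a2, the transporter GLT-1 that takes up most synaptic glutamate in the forebrain, had 7637, 211 and 4185 normalized counts across the controls and 5683, 2782 and 2949 across the E3–E12 diet libraries. Its highest and lowest values were both controls. The log2 difference of 0.93 ± 1.07 became -0.65 without control library 2, and the group means ran the other way, at 4011 ± 3716 for controls and 3805 ± 1629 for E3–E12 diet mice. Slc1a3, the transporter GLAST, was instead high in control library 2, with 549, 1420.1 and 841 across the controls and 1560.1, 642 and 1099 across the E3–E12 diet libraries. It varied least of all the markers with no value at 0, by 2.84 times between its extremes, and differed by 0.25 ± 0.55.

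Glul, the glutamine synthetase that turns glutamate into glutamine (chromosome 1, 153899944 to 153909723, plus strand), was the most abundant marker by far. It had 7839, 16201 and 18549.8 normalized counts across the controls and 6152, 21834 and 22709 across the E3–E12 diet libraries. In both groups library 1 was the low one, as it was for the microglial markers, of which 7 were lowest in control library 1 and 9 in E3–E12 diet library 1. The log2 difference was 0.12 ± 0.67. Its level is uncertain, since 12.6% of its windows also occur in other genes, chiefly the pseudogene Glns-ps1. Slc25a18, a mitochondrial glutamate carrier, had 305, 29.7 and 48.7 across the controls and 172, 262 and 176 across the E3–E12 diet libraries (log2 difference 1.37 ± 0.90). Cbs, the transsulfuration enzyme cystathionine beta-synthase, ranged from 66.8 in control library 2 to 221 in E3–E12 diet library 1, with a log2 difference of 0.17 ± 0.77 that quantile normalization brought to -0.0039.

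Water, ion and gap junction channels and their partners shared much of their order across libraries. All 10 had fitted differences above 0, with a median of 1.599, 9 were lowest in control library 2 and 8 were highest in E3–E12 diet library 1. Slc39a12, a zinc transporter of the plasma membrane (chromosome 2, 14388316 to 14494977, plus strand), had 71.8, 0 and 88.6 normalized counts across the controls and 287, 193 and 101 across the E3–E12 diet libraries. It was the only marker whose groups did not overlap, 1 of 36 against 5.9% of all genes in either direction and 2.99% in the same direction. Its log2 difference was 3.25 ± 1.55 (limma adjusted p = 0.999; exact permutation p = 0.1, the smallest that 3 against 3 libraries allow), and 1.14 without the control library at 0. In the other direction there were 0 markers, against 2.91% of all genes.

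Aqp4, the water channel of astrocyte endfeet, had 451, 23.9 and 187 normalized counts across the controls and 1463, 576 and 160.0 across the E3–E12 diet libraries. E3–E12 diet library 3 lay below 2 of the controls, and the log2 difference was 2.001 ± 1.07, or 0.82 without control library 2. Mlc1 and Hepacam, the membrane proteins that act together at astrocyte junctions, were likewise lowest in control library 2 and highest in E3–E12 diet library 1, with 44.9, 0 and 45.8 against 255, 76.4 and 16.1 for Mlc1 and 241, 17.9 and 206 against 505, 285 and 129 for Hepacam. Their log2 differences were 2.43 ± 1.66 and 1.44 ± 0.999, and 0.59 and 0.25 without control library 2.

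The gap junction genes split. Gjb6, the connexin 30 gene, had 20.6, 0 and 19.4 normalized counts across the controls and 189, 120.5 and 6.79 across the E3–E12 diet libraries, a log2 difference of 2.89 ± 1.69. Gja1, the connexin 43 gene, was low and even across the controls, at 132, 75.5 and 90.5, and peaked in E3–E12 diet library 3, at 330.4, beside 185 and 88.8 in libraries 1 and 2. Its log2 difference of 0.86 ± 0.74 stayed between 0.40 and 1.34 over the fits that left out a library. Atp1b2, the beta 2 subunit of the sodium pump that neurons also express, had the smallest standard error of the 36. It had 2888, 1365 and 2426 across the controls and 6302, 2705 and 3379 across the E3–E12 diet libraries, so the groups overlapped only through control library 1 and E3–E12 diet library 2. It differed by 0.86 ± 0.52 on the log2 scale, and between 0.51 and 1.12 with any library left out.

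Among the other channel genes, Slc4a4, the sodium bicarbonate cotransporter, reached 3012 normalized counts in E3–E12 diet library 1 and 1479 in control library 1, and lay between 296 and 534 in the other 4 libraries. Its log2 difference of 0.43 ± 0.86 was -0.54 without E3–E12 diet library 1. Ttyh1, a membrane protein of the tweety family also found in oligodendrocyte precursors and ependyma, ran from 330.2 in control library 2 to 1935 in E3–E12 diet library 2, with a log2 difference of 0.67 ± 0.66. Cldn10, a claudin, was scarce, at 25.4, 0 and 9.57 across the controls and 65.3, 4.15 and 30.9 across the E3–E12 diet libraries (log2 difference 1.76 ± 1.71).

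**Figure D2:**
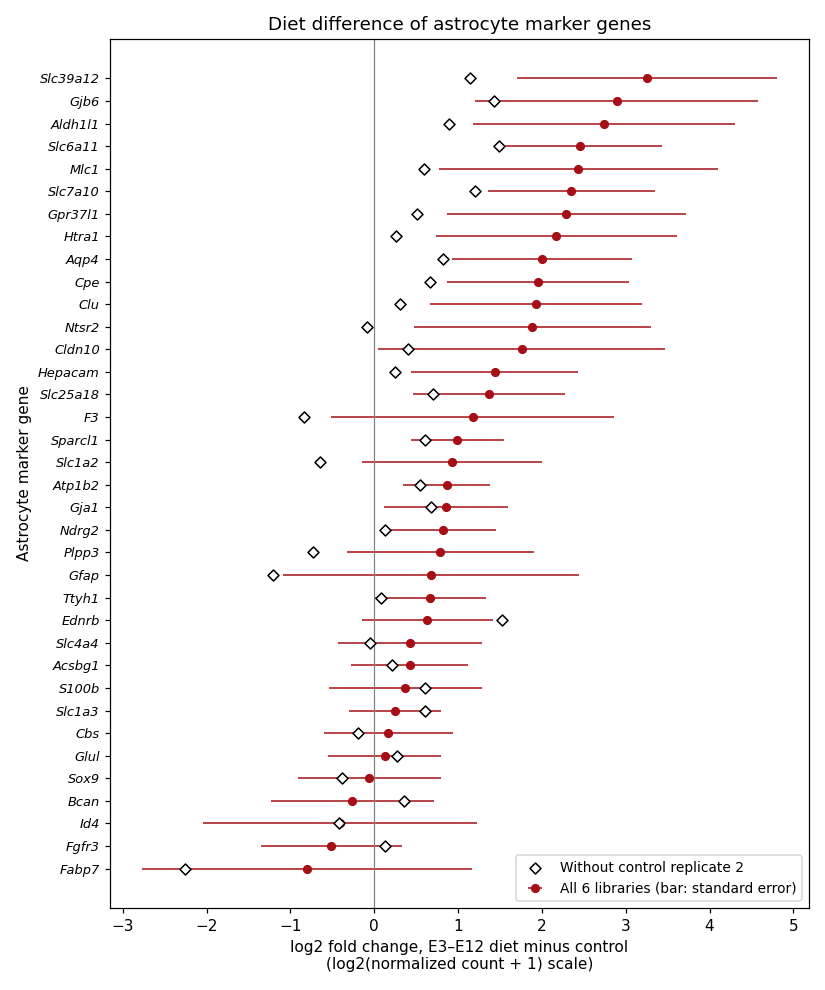
Difference between diets for each astrocyte marker on the log2(normalized count + 1) scale, E3–E12 diet minus control; filled points are fits on all 6 libraries with their standard errors, and open diamonds are fits without control library 2. Without that library 26 of the 36 genes lie above 0 and 10 below, and 5 lie above 1. The matching shares of all genes were not counted in that fit.

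Surface receptors were divided over control library 2, which held the highest value of 1 of them and the lowest of 3. Fgfr3, a fibroblast growth factor receptor of immature and mature astrocytes, had 93.7, 430.3 and 137 normalized counts across the controls and 280.2, 122 and 54.8 across the E3–E12 diet libraries. The log2 difference was -0.51 ± 0.84, and 0.13 without control library 2. Of its windows, 11.6% also occur in other genes, chiefly G630022F23Rik on the opposite strand. Ednrb, the endothelin B receptor, which endothelial and mural cells also make, was likewise high in control library 2, at 3098, beside 453 and 531 in the other controls and 3264, 1088 and 787 across the E3–E12 diet libraries. In E3–E12 diet mice it differed by 0.63 ± 0.78, and by 1.52 without control library 2. Ntsr2 and Gpr37l1, G protein-coupled receptors of astrocytes, were nearly absent from control library 2, at 1.97 and 1.98 normalized counts, about the worth of 1 read there. Their other values lay between 113 and 266 for Ntsr2 and between 49.2 and 332 for Gpr37l1. The log2 differences of 1.89 ± 1.41 and 2.29 ± 1.43 were -0.09 and 0.51 without that library. F3, tissue factor, had 34.8, 0 and 119 across the controls and 67.8, 21.3 and 31.2 across the E3–E12 diet libraries, with a log2 difference of 1.17 ± 1.69 and a lower mean in E3–E12 diet mice.

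The transcription regulators were lowest not in control library 2 but in E3–E12 diet library 2. Sox9, which specifies glia, had 189.5, 102 and 209 normalized counts across the controls and 498, 55.0 and 129 across the E3–E12 diet libraries. The log2 difference of -0.06 ± 0.85 turned above 0 under CPM scaling and under scaling to microglial markers. Id4, an inhibitor of DNA binding also found in oligodendrocyte precursors, was nearly the same across the controls, at 23.3, 23.7 and 25.5, and spread from 2.25 to 274 across the E3–E12 diet libraries, with 6.62 in library 3. Its log2 difference was -0.41 ± 1.64 although its mean was higher in E3–E12 diet mice, and it turned above 0 with a pseudocount of 10 and under CPM scaling.

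Secreted and matrix proteins again had low values in control library 2, with 1 exception. Clu, the chaperone clusterin, which neurons, ependyma and choroid plexus also make, had 194, 9.87 and 527 normalized counts across the controls and 1131, 154 and 354 across the E3–E12 diet libraries. Cpe, the carboxypeptidase E of neurons and astrocytes, had 525, 17.8 and 142 against 815, 556 and 179. Their log2 differences of 1.93 ± 1.26 and 1.95 ± 1.08 came to 0.30 and 0.66 without control library 2. Htra1, a secreted protease shared with mural cells, spanned 1.77 to 311, the widest range of the markers with no value at 0, and differed by 2.17 ± 1.44, or by 0.26 without that library. Sparcl1, the matrix protein hevin, which endothelial cells and neurons share, was steadier. It had 2168, 739 and 1235 across the controls and 4126, 2026 and 1863 across the E3–E12 diet libraries, a log2 difference of 0.99 ± 0.55 that stayed between 0.61 and 1.39 with any library left out. Bcan, the proteoglycan brevican, which oligodendrocyte precursors also make, was the exception, with its highest value in control library 2. It had 1305, 2066 and 253 across the controls and 1804, 1381 and 159 across the E3–E12 diet libraries, so library 3 was the low one in both groups. Its log2 difference was -0.26 ± 0.97, and just above 0 under quantile normalization and under scaling to microglial markers.

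The lipid and other enzymes were all lowest in control library 2. Ndrg2, a cytosolic protein of the astrocyte body and processes, had 1378, 329 and 1388 normalized counts across the controls and 2377, 1202 and 1222 across the E3–E12 diet libraries, and differed by 0.82 ± 0.63. Plpp3, a lipid phosphatase shared with endothelial cells, had 514, 25.8 and 759.8 against 888, 230.3 and 262, and its log2 difference of 0.79 ± 1.12 was -0.73 without control library 2. Acsbg1, an acyl-CoA synthetase, stood out in E3–E12 diet library 2, at 1027, and lay between 201 and 359 elsewhere, with a log2 difference of 0.42 ± 0.70. Fabp7, the fatty acid binding protein of radial glia, had 36.1, 0 and 10.51 across the controls and 18.7, 1.17 and 0.880 across the E3–E12 diet libraries. The last of these values are about the worth of 1 read, and the log2 difference of -0.80 ± 1.96 was smaller than its error.

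The shared library pattern was summarised by the median deviation of the markers from their own means. For the 36 markers it was 0.57, -2.80 and 0.12 on the log2 scale in control libraries 1, 2 and 3 and 1.61, 0.21 and -0.28 across the E3–E12 diet libraries. For all genes tested it lay between -0.29 and 0.15, with -0.29 in control library 2. The 22 markers listed for astrocytes alone went to -3.26 in control library 2, and the 14 shared with other cells to -1.38. The median log2 difference was 1.27 for the 22, with 20 above 0, and 0.73 for the 14, with 11 above 0. Filtering kept all 36 markers, so none was lost to low values.

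**Figure D3:**
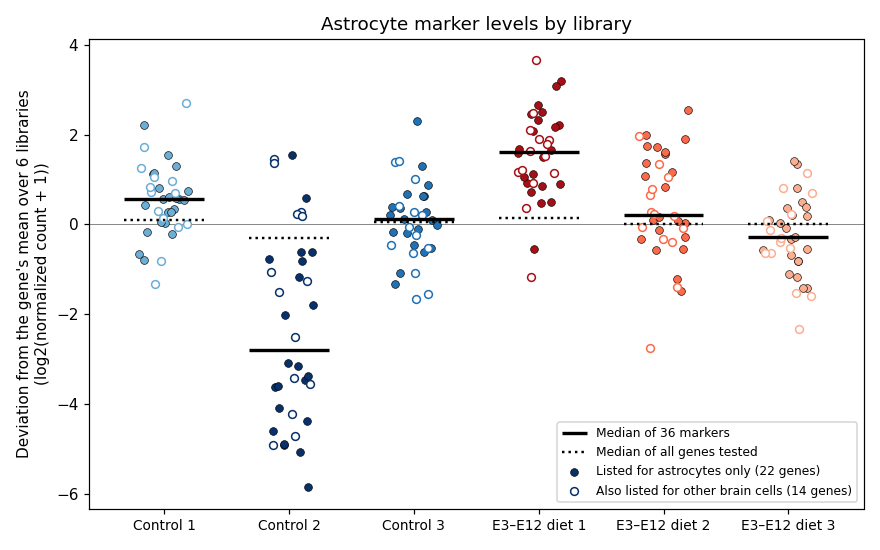
Deviation of each of the 36 astrocyte markers from its own mean over 6 libraries, in log2(normalized count + 1), by library; solid lines are medians of the 36 and dotted lines medians of all genes tested. The median is -2.80 in control library 2 and 1.61 in E3–E12 diet library 1, while the dotted lines stay between -0.29 and 0.15.

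Summed counts gave the same libraries at the extremes. The 22 markers listed for astrocytes alone summed to 14343, 3284 and 9222 normalized counts across the controls and to 21517, 10816 and 7699 across the E3–E12 diet libraries. The groups overlapped, and the sum in E3–E12 diet library 3 was below that of 2 controls. Slc1a2 alone gave 7637, 211 and 4185 of these counts across the controls and 5683, 2782 and 2949 across the E3–E12 diet libraries. The 16 microglial markers ran the other way, at 124035, 595131 and 327642 across the controls and 115847, 288848 and 392568 across the E3–E12 diet libraries. As a percentage of the microglial sum, the 22 astrocyte markers came to 11.6%, 0.55% and 2.81% across the controls and 18.6%, 3.74% and 1.96% across the E3–E12 diet libraries. All 16 microglial markers had a fitted difference below 0, with a median of -0.28, and 0 of them had an unadjusted p under 0.05.

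Markers of other cells moved with several of these libraries. Of 12 endothelial markers, 8 were lowest in control library 2, and their sum was 6271 to 20906 normalized counts across the controls and 17031 to 27592 across the E3–E12 diet libraries; Ly6c1, Ly6a and Slco1c1 were at 0 in control library 2. The defining Cldn5 and Pecam1 went the other way, with their highest values of the 6 libraries there, at 1207 and 3154 normalized counts. Of 10 mural markers, 6 were lowest in control library 2, with sums of 3013 to 17353 across the controls and 7454 to 19299 across the E3–E12 diet libraries. All 8 choroid plexus markers were highest in E3–E12 diet library 1, and their sums, 844 to 30784 and 1589 to 59346, spread widely within both groups. Of 14 neuronal markers, 9 had a fitted difference above 0, and the sums were 1675 to 4589 and 2174 to 4852. Control library 2 was the lowest for 5 of them, with the defining Syt1 and Rbfox3 at 0, and the highest for 3, Map2, Nefm and Gad1. Of 10 oligodendrocyte markers, 3 were above 0, with sums of 5597 to 44437 and 6914 to 25276. Of 8 oligodendrocyte precursor markers, 7 were above 0, with sums of 968 to 9308 and 871 to 8954, and both lists were low in library 3 of each group. Of 4 tested ependymal markers, 3 were above 0, and the 6 ependymal markers of the table summed to 171 to 194 and 141 to 392. Of 7 markers of border macrophages, 1 was above 0, with sums of 6019 to 21060 and 5645 to 9847. The part of these cells in the astrocyte marker differences was not tested.

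**Figure D4:**
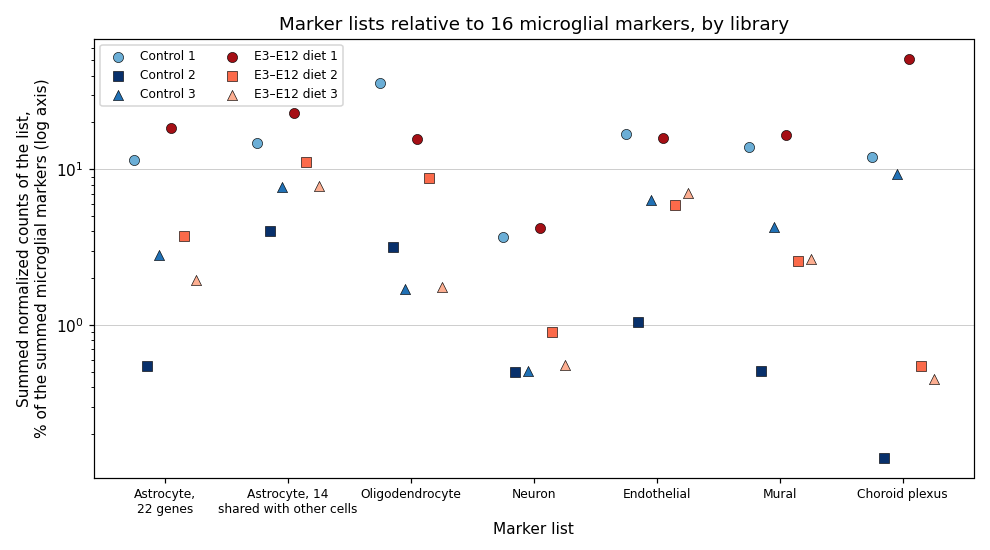
Summed normalized counts of marker lists in each library as a percentage of the summed 16 microglial markers, on a log axis; blue symbols are controls and red symbols E3–E12 diet libraries. The 22 markers listed for astrocytes alone run from 0.55% in control library 2 to 18.6% in E3–E12 diet library 1.

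A wider list of astrocyte genes had control library 2 as its lowest for 34 of 65. Of 71 further genes in the table, those 65 could be tested, 0 passed the adjusted threshold and 2 had an unadjusted p under 0.05, Aldoc and Gli3, against 1.49% of all genes. The fitted difference was above 0 for 49 and below 0 for 16, with a median of 0.62. The groups did not overlap for 4 of them, 3 higher and 1 lower, against 5.9% of all genes in either direction, so that share is near the background. Gli3, a transcription factor of hedgehog signaling, had 122, 2.83 and 96.8 normalized counts across the controls and 616, 300.5 and 162 across the E3–E12 diet libraries, a log2 difference of 3.12 ± 1.24. Megf10, an engulfment receptor of astrocytes, had 51.7, 9.02 and 48.3 against 59.6, 284 and 77.3, a log2 difference of 1.90 ± 1.06. Both were lowest in control library 2, as was Aldoc, the aldolase of astrocytes, with a log2 difference of 2.87. Notch1, a receptor found in many cell types, was the one that went the other way, with 3959, 3286 and 3816 across the controls and 1946, 2594 and 1380.2 across the E3–E12 diet libraries, a log2 difference of -0.94 ± 0.46. From these same libraries the study listed Gli3 and Aldoc as upregulated, with smaller log2 differences than here, and Notch1 as downregulated. Those calls came from DESeq2 at an adjusted threshold of 0.1. The directions of these genes here are therefore not independent evidence.

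Kcnj10, the Kir4.1 potassium channel of astrocytes and oligodendrocytes, had 1336, 692 and 365 normalized counts across the controls and 3019.7, 2075 and 688 across the E3–E12 diet libraries. Library 3 was the lowest within each group, and the log2 difference was 1.22 ± 0.67. Il33, the cytokine that astrocytes release to act on microglia, was scarce, at 22.05, 9.01 and 85.3 across the controls and 39.1, 57.1 and 94.5 across the E3–E12 diet libraries. The groups overlapped, and its log2 difference of 1.16 ± 1.12 was about the size of its standard error.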

How the data were processed

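RNA-seq of microglia from 3 control and 3 E3–E12 diet litters was analysed. The authors deposited normalized counts per gene, a signal scaled across libraries rather than raw counts; the submitters' processing notes name FastQC, STAR, featureCounts, DESeq2 and GRCm38, without versions. The table's name mentions surrogate variable analysis, but the sources used here do not describe that step, so an adjustment for hidden factors may have altered differences between libraries. Symbols, positions and exon lengths came from GENCODE M21 (GRCm38), which matched 26507 of 26789 identifiers, and promoters from RefSeq (GRCm38.p6).

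Genes averaging 10 normalized counts or more were transformed to log2(normalized count + 1). They were compared with limma 3.58.1 (R 4.3.3, empirical Bayes with a variance trend), two-sided, with Benjamini-Hochberg adjustment and a threshold of 0.1. The added 1 understates differences between low values, but a 0 in a single library can enlarge a difference of log means. Slc39a12, at 0 in control library 2, differed by 3.25, and by 2.12 with a pseudocount of 10. Single genes were also compared by exact permutation, which cannot go below 0.1 for 3 against 3 libraries. The code was tested on simulated data. Tables were handled in Python 3.11.15. Sharing of sequence between genes was the share of a gene's 50-base exonic windows found in other genes. Replicates are litters by the study's methods, and library numbers are those of the labels.

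The members and lists were chosen with earlier results of these data known. All 36 members are named; of the further astrocyte genes, up to 6 with the largest difference and no overlap are named, plus Il33 and Kcnj10. Alternatives covered the pseudocount, the filter, scaling, a replicate block and each library left out.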

Additional observations from a re-analysis of the deposited data

How the results depend on the processing

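No astrocyte marker passed the adjusted threshold under any alternative. Among all genes, 1 passed it without E3–E12 diet library 3, and 0 otherwise. The markers with an unadjusted p under 0.05 numbered 2 in the reported comparison (1.49% of all genes), 3 with a pseudocount of 10, without a filter or under quantile normalization (1.62%, 1.38% and 2.22%), 1 under scaling to microglial markers (0.633%) and 0 with limma without a variance trend (1.82%; chosen after seeing the data). With 1 library left out they numbered 0 to 10, with 10 without control library 1 (4.88%), 1 without control library 2 (2.09%), 3 without control library 3 (2.13%), 4 without E3–E12 diet library 3 (1.26%) and 0 without E3–E12 diet library 1 or 2 (1.59% and 1.04%). The median difference of the markers was 0.33 to 1.57 with 1 library left out and 0.84 to 1.16 under all other settings. Scaling to microglial markers moved the median of all genes from 0.087 to 0.36, and the marker median to 1.16.

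With the replicate number as a block, 4 markers had an unadjusted p under 0.05 (Slc6a11, Slc39a12, Sparcl1 and Slc7a10), against 2.65% of all genes (478), and 0 passed after adjustment. Same-numbered libraries deviated together with correlations of 0.260, 0.0348 and 0.142, or 0.151 pooled. Between differently numbered libraries the correlations ran from -0.251 to 0.0869. The study's methods do not describe same-numbered litters as pairs, and the reported comparison left the numbers out.

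Single markers that changed sign were Gfap (-0.015 under CPM, -0.19 under quantile normalization), Cbs (-0.0039, quantile), Sox9 (0.082, CPM; 0.23, microglial scaling), Id4 (0.18 with a pseudocount of 10; 0.35, CPM) and Bcan (0.0011, quantile; 0.034, microglial scaling). With 1 library left out, 29 of 216 marker values changed sign, over 16 markers, whose ranges were Gfap -1.21 to 1.95, S100b -0.31 to 0.83, Slc1a2 -0.65 to 1.93, Slc1a3 -0.082 to 0.60, Glul -0.26 to 0.74, Cbs -0.24 to 0.62, Slc4a4 -0.54 to 1.13, Fgfr3 -1.10 to 0.13, Ntsr2 -0.086 to 3.01, F3 -0.84 to 2.62, Sox9 -0.91 to 0.67, Id4 -2.34 to 0.87, Bcan -1.16 to 0.84, Acsbg1 -0.34 to 0.80, Fabp7 -2.26 to 0.35 and Plpp3 -0.73 to 1.69.

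The study gave a range of reads per sample but no number for each library. The precision of the 8 markers at 0 in control library 2 is therefore not known. The sum of normalized counts divided by the smallest recurring step came to 8719940 there and to 8359670 in E3–E12 diet library 1, which held no marker at 0.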
